A study of Mus musculus with 6 samples.

Results

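The genes described here encode the proteins of the cytosolic ribosome and their close paralogues. They were chosen by symbol: names that begin with Rpl or Rps followed by a number, together with Rplp0, Rplp1, Rplp2 and Rpsa, but without the S6 kinase genes and without names marked as pseudogenes. Of 18160 genes in the table, 91 met this rule. Of those, 46 are core proteins of the large subunit, 31 are core proteins of the small subunit and 13 are paralogues. Some of the paralogues are annotated as processed pseudogenes under names that do not mark them so. The remaining 1, Rps19bp1, encodes a binding partner of a ribosomal protein and no part of the ribosome. The rule leaves out Fau, which encodes a ribosomal protein as a fusion with a ubiquitin-like part, and Rack1, a ribosome-bound scaffold. Both were read separately.

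RNA was sequenced from the prefrontal cortex of adult C57BL/6J mice at postnatal day 56, with poly(A)-selecting, strand-keeping libraries. One group was wild type (WT, 3 samples) and the other was CYFIP2 heterozygote (HET, 3 samples), with no further allele and no treatment named in the labels. CYFIP2 belongs to the WAVE complex, which promotes branching of actin filaments, and can bind FMRP, the fragile X protein. The labels do not say what the mutation is, nor whether each sample came from a separate animal, so p-values measure only the spread between these samples.

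A cytosolic ribosome is built from a large and a small subunit, each made of ribosomal RNA and a fixed set of proteins of which a ribosome holds about a single copy each, apart from the stalk proteins. The genes are widely expressed at high levels, and their mRNAs typically begin with a C followed by a run of pyrimidines, the terminal oligopyrimidine (TOP) element through which mTOR signalling and LARP1 control their translation. In neurons, ribosomal protein mRNAs are found in axons and dendrites as well as in the cell body. Mammalian genomes also hold many processed pseudogenes of these genes, some nearly identical in sequence to their parent.

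The TOP start could be read for some of the genes from RefSeq's promoter windows (build GRCm38.p6), which run from 250 bases before to 50 after each annotated start. Windows were present for 66 of the 91 genes. The lines below give 30 bases around the annotated start, 15 before it and 15 from it onward. They run 5′ to 3′ on the strand of the gene. Rps15a is the small-subunit gene with the largest upward difference between genotypes in this data set, which did not pass the test described below. Next come a stalk protein (Rplp2), the classic target of S6 kinase (Rps6) and a further large-subunit gene (Rpl38). Last are a parent and its expressed intronless copy (Rps27 and Rps27rt). Capitals mark the uninterrupted pyrimidine run that opens the transcript.
Rps15a, chr7:118116133-118116162, minus strand: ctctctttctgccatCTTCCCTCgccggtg
Rplp2, chr7:141447636-141447665, plus strand: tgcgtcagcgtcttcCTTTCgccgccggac
Rps6, chr4:86857353-86857382, minus strand: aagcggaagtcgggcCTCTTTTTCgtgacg
Rpl38, chr11:114668565-114668594, plus strand: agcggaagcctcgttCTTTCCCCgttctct
Rps27, chr3:90213634-90213663, minus strand: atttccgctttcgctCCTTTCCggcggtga
Rps27rt, chr9:114982725-114982754, minus strand: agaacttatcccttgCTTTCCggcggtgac
The windows of Rps27 and Rps27rt share a stretch of 14 bases, ctttccggcggtga, which starts at transcribed base 2 of Rps27 and at transcribed base 1 of Rps27rt.

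A C followed by at least 4 pyrimidines at the annotated first base occurred in 13 of 67 promoters of core genes (19.4%, from 57 genes), against 2.505% of all 32851 promoters in the RefSeq table. The C and its 4 pyrimidines were then allowed to lie anywhere within the 10 bases before the annotated start and the 10 bases from it onward. The shares were 47.76% and 25.46%. The letters CTTCCG or CGGAAG, which hold the core bound by ETS family factors such as GABPA, were found on either strand in 62.69% of core promoters and 16.85% of all promoters. CCATCTT or AAGATGG, the core of the YY1 motif, was found in 16.42% and 6.338%. TATAA or TTATA was found in 23.88% of core promoters and 24.87% of all promoters. These matches describe the windows and are no evidence of binding.

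Cyfip2 itself was checked first. Its normalized counts were 45454, 43174 and 45627 in WT 1 to 3 and 28356, 28578 and 29567 in HET 1 to 3, so the groups lay far apart. The log2 fold change was -0.63 ± 0.05 (SE; limma-trend with Benjamini-Hochberg adjustment over 15151 genes, adjusted p = 0.00269). The values are normalized counts, read estimates that the authors scaled between samples; they are not raw counts. Each fold change is HET minus WT after adding 1 and taking log2. Totals were 36.4 to 37.1 M normalized counts per sample (M for 1e+06). The spacing of the low values gives an estimate of the depth, 27.1 to 48.0 M reads, highest in WT 1 and lowest in WT 3.

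The ribosomal protein genes were, as a group, slightly higher in the heterozygotes, and no single member passed the test. Of 89 members with a mean of at least 10 normalized counts, 66 had a mean log2 value above wild type, and among the 77 core genes 62 did (80.5%), against 50.8% of all tested genes. The median log2 fold change of the core genes was 0.088, against 0.0020 over all tested genes. At an adjusted p under 0.05 no member was called, in either direction, where 0.0132% of all genes were (0.0066% upward), and the smallest adjusted p of a member was 0.668 (limma, Benjamini-Hochberg). At an unadjusted p under 0.05, 21 of 89 members were higher and 0 were lower, beside 2.36% and 2.71% of all tested genes. The 3 HET values all lay above the 3 WT values for 17 members, all of them core genes, and all below for 1, where the background was 5.15% of all genes higher and 5.3% lower.

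The size of this difference depended on which libraries entered. Leaving out HET 2 lowered the median of the core genes to 0.056 and leaving out WT 1 lowered it to 0.059, while it was 0.133 without HET 1 and 0.130 without WT 2. Between 57 and 79 of the 89 members were above wild type when any 1 library was left out, and the median stayed above 0 in all 6 cases. The members share regulation and libraries, so these counts are a description, and no test was made of the group as a whole.

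**Figure D1:**
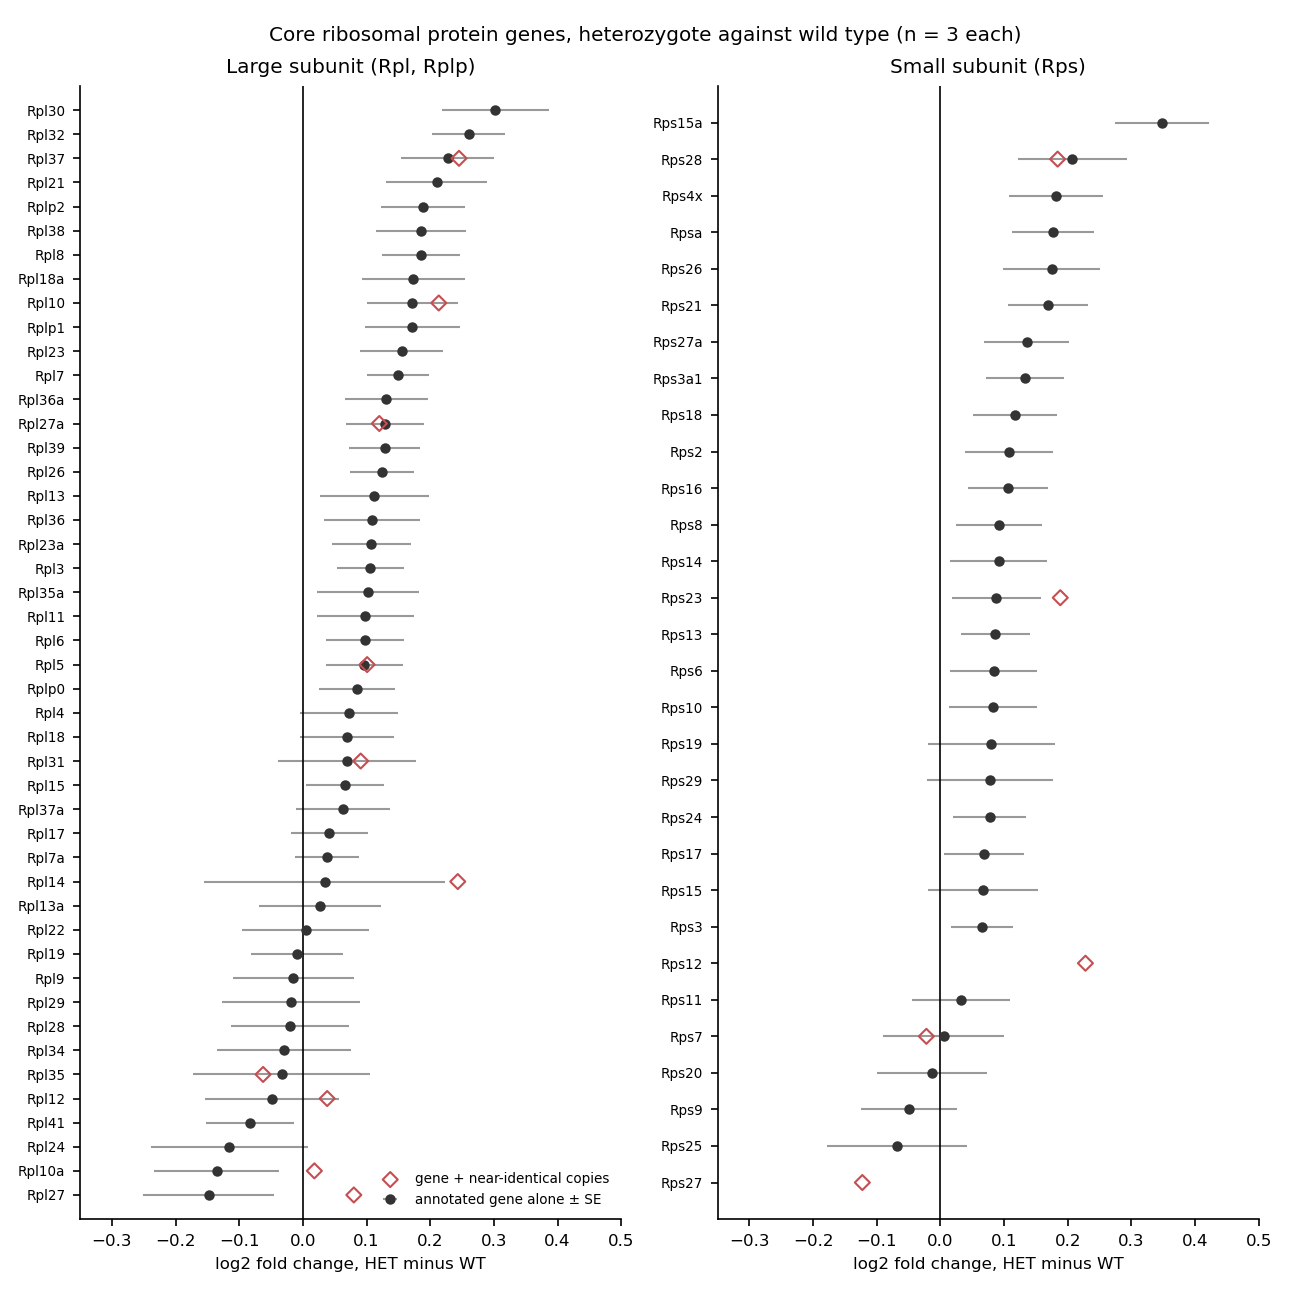
Log2 fold change (x axis, HET minus WT, log2 normalized count + 1) of the core ribosomal protein genes (1 small-subunit gene is not shown), large subunit at left and small subunit at right; filled points with bars are the annotated gene with its standard error (n = 3 per group), and open diamonds are the gene summed with its near-identical copies where these hold over 10% of the sum. Most points lie right of 0. Rpl27 and Rpl10a lie left of 0 alone and right of it as sums. The single-gene values of Rps12 (0.06 ± 2.06) and Rps27 (-0.71 ± 0.75) are not drawn because of their large errors.

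The large and small subunits were close in the size of the difference. For the 46 large-subunit genes the median was 0.097, with 35 above wild type, 12 without overlap upward and 1 downward. For the 31 small-subunit genes the median was 0.086, with 27 above wild type, 5 without overlap upward and 0 downward. Over all tested genes the groups did not overlap upward for 5.15% and downward for 5.3%. The difference of the medians, large minus small, was 0.011, and it ranged from -0.013 to 0.013 when 1 library was left out.

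The member with the largest positive log2 fold change was Rps15a, which encodes a protein of the small subunit (chr7:118104372-118116188, minus strand). Its normalized counts were 4529, 4291 and 4153 in WT and 6135, 5042 and 5386 in HET. All HET libraries lay above all WT libraries, HET 1 highest. The log2 fold change was 0.35 ± 0.07 (95% interval 0.18 to 0.51; limma, adjusted p = 0.668). Rpl32, a large-subunit protein (chr6:115805505-115808747, minus strand), showed the tightest separation: 2326, 2583 and 2510 in WT against 2941, 2984 and 2953 in HET. Its log2 fold change was 0.26 ± 0.06 (95% interval 0.13 to 0.39; limma, adjusted p = 0.668).

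Rpl30, a large-subunit protein, had 3193, 3140 and 3366 normalized counts in WT and 4346, 4226 and 3448 in HET. The groups did not overlap, but HET 3 lay close to WT 3 (log2 fold change 0.30 ± 0.08). Rpl37, also of the large subunit, had 3474, 3863 and 3326 in WT and 4491, 4085 and 3908 in HET (0.23 ± 0.07), with WT 2 just below HET 3. For Rpl8, which lies close to the catalytic centre of the large subunit, the values were 6149, 6959 and 6444 in WT and 7327, 7771 and 7124 in HET (0.19 ± 0.06). In Rpl7 the 6 libraries fell into narrow ranges, 4626 to 4788 in WT and 5120 to 5387 in HET (0.15 ± 0.05). The adjusted p of these 4 genes lay between 0.741 and 0.900 (limma).

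**Figure D2:**
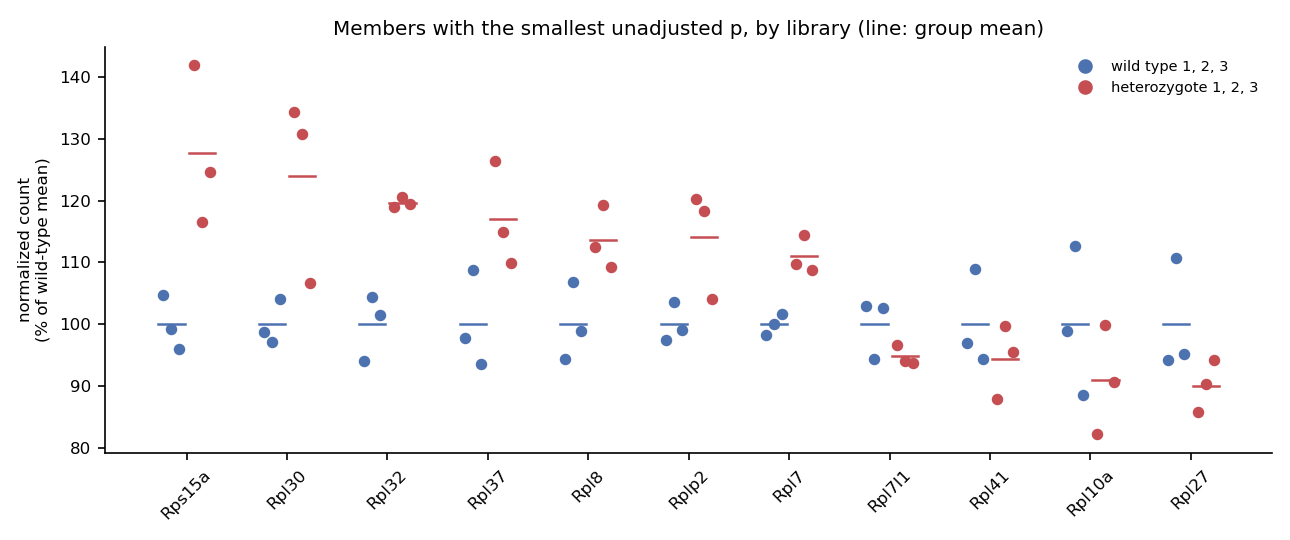
Normalized counts of 11 members in each library, as percent of the WT mean of the same gene (y axis; short lines are group means): 7 higher and 4 lower members with the smallest unadjusted p among those with a mean of at least 50. In the 7 genes at left every HET point lies above every WT point; at right the groups overlap in Rpl7l1, Rpl41 and Rpl10a, and do not in Rpl27.

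Of the 89 tested members, 23 were below wild type. The most negative log2 fold changes belonged to scarce genes with large errors: Rps3a2 (-1.81 ± 0.91), Rps12l1 (-0.96 ± 1.01) and Rps27 (-0.71 ± 0.75). Rpl41, a very short peptide at the interface of the subunits, had 6577, 7388 and 6400 normalized counts in WT and 5969, 6762 and 6486 in HET, overlapping groups with a log2 fold change of -0.083 ± 0.069. Rpl27 had 266, 313 and 269 in WT and 242, 255 and 266 in HET, the only member whose HET values all lay below WT, by a margin of less than 1 normalized count between WT 1 and HET 3 (-0.15 ± 0.10). Rpl10a had 1905, 2172 and 1705 in WT and 1583, 1926 and 1747 in HET (-0.14 ± 0.10). For both Rpl27 and Rpl10a a large part of the reads was assigned to a copy, as described further on, and the sum with the copies was above wild type (0.080 and 0.018).

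The stalk of the large subunit, which recruits the elongation factors, is made of Rplp0, Rplp1 and Rplp2. Rplp2 had 3365, 3572 and 3416 normalized counts in WT and 4149, 4082 and 3588 in HET (log2 fold change 0.19 ± 0.07), without overlap. Rplp1 had 10062, 12068 and 10536 in WT and 12558, 12775 and 11403 in HET (0.17 ± 0.07), and WT 2 lay above HET 3. Rplp0, often used as a reference gene in quantitative PCR, had 5679, 5998 and 5603 in WT and 6553, 6019 and 5780 in HET (0.09 ± 0.06), and overlapped. All 3 stalk genes were thus above wild type, by different margins and none past the test.

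Among small-subunit proteins with a known further role, Rpsa, also described as the laminin receptor, had a log2 fold change of 0.18 ± 0.06, with 9423, 10703 and 9954 normalized counts in WT and 11741, 11728 and 10531 in HET. Rps27a, which is made as a fusion with ubiquitin, had 3397, 3709 and 3439 in WT and 3548, 4086 and 3965 in HET (0.14 ± 0.07). In both genes WT 2 lay above the lowest HET library. Rps6, whose protein is phosphorylated by S6 kinase downstream of mTOR, had 4637, 5540 and 4987 in WT and 5174, 5335 and 5528 in HET (0.08 ± 0.07), and WT 2 was the highest of the 6. Near-identical copies, described further on, held 0.07% of the Rps6 sum in WT 2 and 8.97% in HET 2. With these copies the sum was 5544 in WT 2 and 5860 in HET 2, the highest. Rps3, at the mRNA entry site, had 4698, 4794 and 5006 in WT and 5051, 5068 and 5048 in HET (0.07 ± 0.05), and all HET values lay above WT.

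Among large-subunit proteins, Rpl3 had 12599, 13445 and 13116 normalized counts in WT and 13566, 14736 and 13860 in HET (0.11 ± 0.05), without overlap. Rpl39, a small protein that lines the exit tunnel, had 1542, 1566 and 1593 in WT and 1689, 1749 and 1701 in HET (0.13 ± 0.06), also without overlap. Rpl5 and Rpl11 form a particle with the smallest rRNA of the large subunit and can bind Mdm2, an inhibitor of p53. Rpl5 had 1461, 1543 and 1606 in WT and 1680, 1636 and 1611 in HET (0.10 ± 0.06), and Rpl11 had 3383, 3773 and 3767 in WT and 3518, 4226 and 3963 in HET (0.10 ± 0.08). Rpl10, an X-linked gene whose protein joins the large subunit late, had 2440, 2484 and 2419 in WT and 3072, 2584 and 2642 in HET (0.17 ± 0.07). Of these 5, the groups overlapped in Rpl11. Rpl22 hardly differed, with 2312, 2645 and 2318 in WT and 2066, 2699 and 2567 in HET (log2 fold change 0.005, 95% interval -0.22 to 0.23).

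The share of reads that reached each annotated gene was uneven. Of the 77 core genes, 65 had at least 1 near-identical copy among the table's other genes, defined by at least 90% identity over at least 200 aligned bases and 50% of the copy's transcript. There were 274 such copies, of which 19 had a mean of at least 100 normalized counts. For 50 core genes the copies held under 1% of the sum of gene and copies, for 15 over 10%, and for 6 over 50%. Reads that match both equally cannot be told apart by sequence, so for these genes the value of either row alone is uncertain.

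Rps27, Rps12, Rpl12, Rpl27, Rpl5 and Rpl10 were the 6 genes with most of their sum in copies. Rps27 itself had at most 24.99 normalized counts, and 99.2% of its sum was assigned to Rps27rt, the intronless copy on chromosome 9 that is identical over 341 aligned bases. Rps12 was listed at 0 in 4 libraries, with 92.4 in WT 1 and 105 in HET 2, while Rps12-ps3 on chromosome 19, identical over 494 bases, held 3233 to 3606 in WT and 3922 to 4107 in HET. Rpl12 had 90.7% of its sum in copies, nearly all in Gm10275. Rpl27 had 89.0%, mainly in Rpl27-ps3, Rpl5 had 77.5%, mainly in Gm15500, and Rpl10 had 53.7%, mainly in Rpl10-ps3. The split was steady between libraries for Rpl5, where the copies held 76.6% to 78.3% of the sum. For Rpl27 the copies held 87.6% to 88.5% of the sum in WT and 89.6% to 90.1% in HET, without overlap.

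For other genes the split moved more between libraries. Rpl14 had 2645, 3546 and 2925 normalized counts in WT and 2180, 3931 and 3436 in HET, and its processed pseudogene Rpl14-ps1 had 537, 434 and 565 in WT and 1659, 711 and 678 in HET. In HET 1 the gene was at its lowest and the copy at its highest, so that the copy held 43.2% of the sum there and 10.9% to 16.9% in the other 5 libraries. The sum of both ran 3182, 3980 and 3490 in WT and 3840, 4642 and 4114 in HET, with WT 2 above HET 1. Rpl14 alone had a log2 fold change of 0.03 ± 0.19, and the sum 0.24. The gene and the copy aligned with 98.9% identity. The full alignment of 656 bases had 4 mismatches and 3 gaps, so few positions separate the reads of one from those of the other. A stretch of 60 bases of an Rpl14 coding exon and the matching stretch of the copy (build GRCm38, both on the plus strand) differ at 2 bases, in capitals. It was chosen for its differences: no other ungapped coding stretch of this length with matching ends held more.
Rpl14, chr9:120574114-120574173: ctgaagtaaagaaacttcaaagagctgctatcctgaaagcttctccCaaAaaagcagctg
Rpl14-ps1, chr7:45325338-45325397: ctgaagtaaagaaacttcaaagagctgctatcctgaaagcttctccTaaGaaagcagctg

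**Figure D3:**
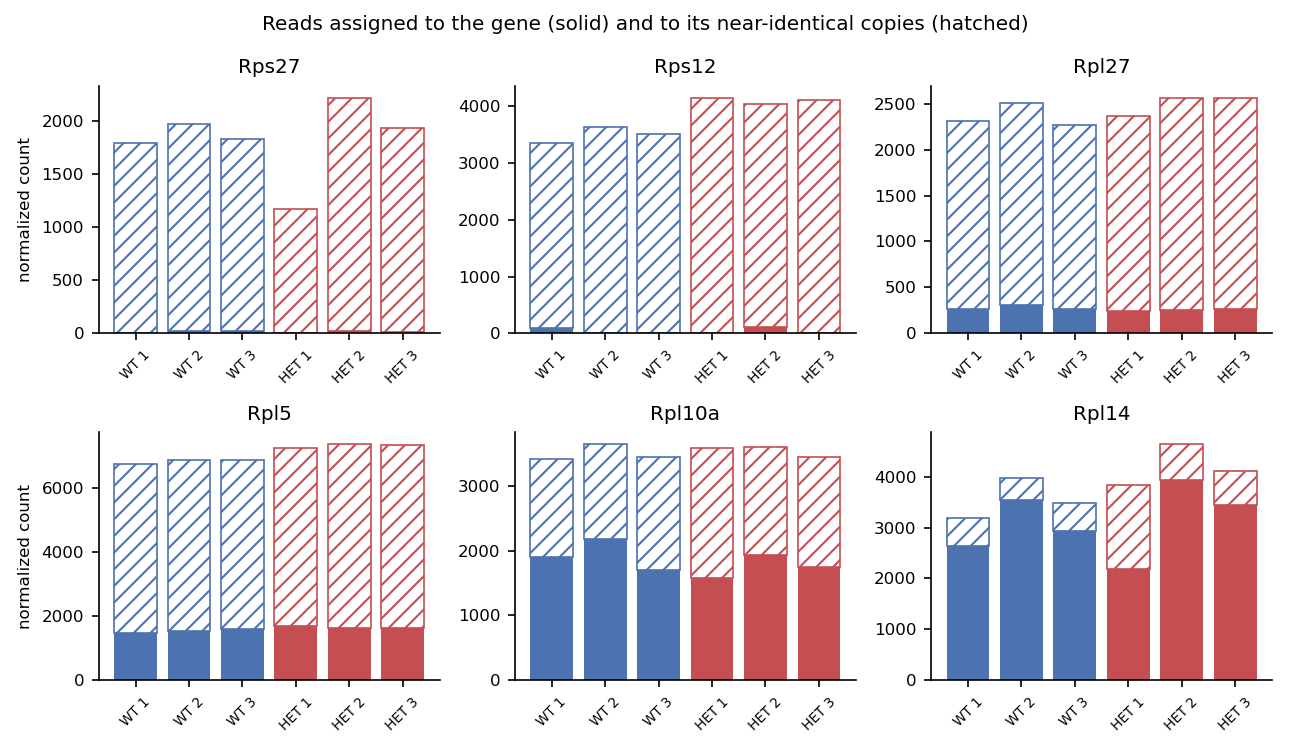
Normalized counts (y axis) of 6 core genes in each library (x axis), with the annotated gene as solid bars and its near-identical copies as hatched bars on top; blue is WT and red HET. Rps27 and Rps12 are almost wholly hatched, the split is even across libraries in Rpl5, and HET 1 has the largest hatched part in Rpl14.

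With each core gene replaced by the sum of itself and its copies, a choice made after seeing the data, 66 of 77 were above wild type and the median log2 fold change was 0.096. The medians were 0.101 for the large and 0.093 for the small subunit. HET values lay all above WT for 20 genes and all below for 0, beside 5.15% and 5.3% of all tested genes. No sum passed the test (smallest adjusted p = 0.674, limma). The Rps12 sum showed 3360, 3632 and 3518 in WT and 4149, 4042 and 4111 in HET, a log2 fold change of 0.23 ± 0.05 where the annotated gene alone gave no usable value. The Rps23 sum, 44.3% of it in copies, went from 0.09 for the gene alone to 0.19. The sums also put Rpl12 (-0.048 alone, 0.038 summed), Rpl28 (-0.020 and 0.037) and Rpl9 (-0.015 and 0.003) above wild type, and Rps7 below it (0.005 and -0.022). The Rps27 sum stayed below wild type (-0.12), with 1171 in HET 1 against 1799 to 2222 in the other 5 libraries. In the 62 core genes with at most 10% in copies the median was 0.094, and 52 were above wild type.

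Large- and small-subunit genes moved together from library to library. For each gene the deviation of a library from the gene's mean over all 6 was taken on the log2 scale and averaged. With the sums, the large subunit stood at -0.12, 0.03 and -0.06 in WT 1 to 3 and at -0.03, 0.14 and 0.04 in HET 1 to 3. The small subunit stood at -0.11, 0.02 and -0.06 in WT and at -0.03, 0.13 and 0.05 in HET, close to the large subunit in each library. WT 2 was above HET 1 in both, so the groups overlapped. For the annotated genes alone, the small-subunit mean was instead 0.01, -0.02 and -0.10 in WT and -0.16, 0.29 and -0.03 in HET; Rps12, which was listed at 0 in 4 libraries, and Rps27 belong to this average.

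**Figure D4:**
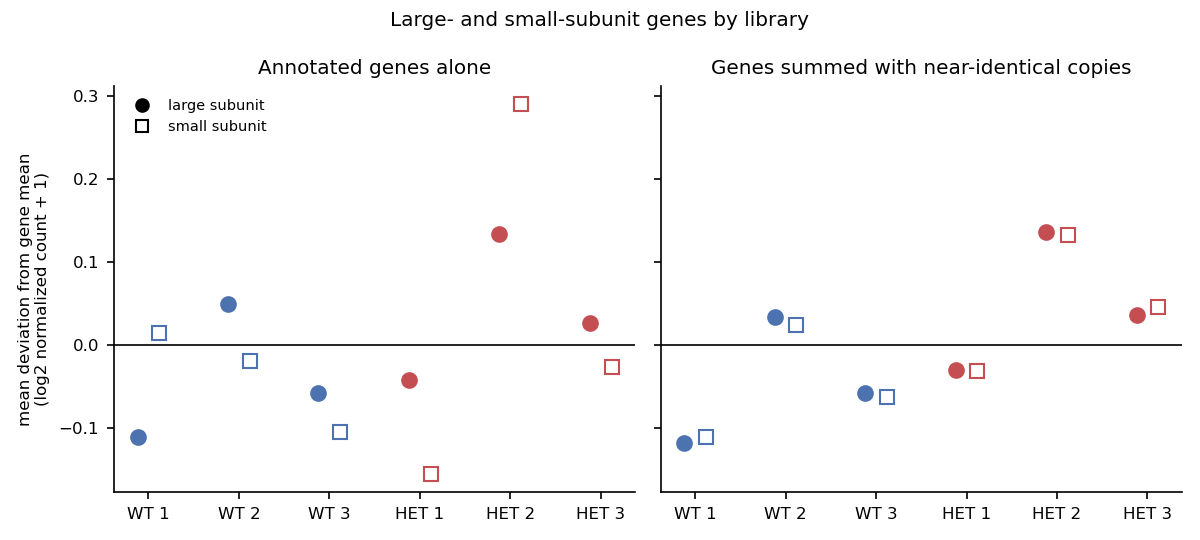
Mean deviation from each gene's own mean (y axis, log2 normalized count + 1) over large-subunit genes (filled circles) and small-subunit genes (open squares) in each library (x axis; blue WT, red HET), for annotated genes alone at left and for sums with near-identical copies at right. At right both subunits nearly coincide in every library, HET 2 is highest, WT 1 is lowest, and WT 2 lies above HET 1.

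HET 2 and WT 1 were the extremes. HET 2 held the highest value of 51 of the 77 annotated core genes and the lowest of 0, and 75 were above their mean there. WT 1 held the lowest value of 39 and the highest of 0, and 3 were above their mean. HET 1 was mixed: 12 core genes had their highest value there and 21 their lowest, which sets it apart from both other HET libraries. With group means removed, the median correlation between large-subunit genes over the 6 libraries was 0.61, between small-subunit genes 0.50 and across the subunits 0.59 (Rps12 left out). It was 0.11 among 76 mitochondrial ribosomal protein genes with a mean of at least 200, and 0.04 among all genes with a mean of at least 1000. These sets differ from the core genes in expression level, and the correlations were not corrected for it. All genes share the same 6 libraries, and these correlations are given as a description.

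Core genes with their copies made up 0.905%, 1.02% and 0.940% of the normalized counts in WT 1 to 3 and 0.976%, 1.09% and 1.02% in HET 1 to 3. Transcripts of the mitochondrial genome made up 8.13%, 8.83% and 8.38% in WT and 8.19%, 9.47% and 8.67% in HET. WT 1 was lowest and HET 2 highest in both shares, with WT 2 next to HET 2. Whether the mitochondrial share has a part in the ribosomal difference was not tested.

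The 13 paralogues, of which Rpl37rt, Rpl6l, Rps12l1, Rps3a2, Rps3a3 and Rps4l are annotated as processed pseudogenes, were scattered around wild type. Of 11 with a mean of at least 10, 4 were above wild type, the median was -0.066, and no pair of groups was free of overlap. Rpl36al, a retrogene of Rpl36a, had 1382, 1491 and 1421 normalized counts in WT and 1490, 1510 and 1471 in HET (log2 fold change 0.06 ± 0.06). Rpl22l1, the paralogue of Rpl22, had 682, 664 and 734 in WT and 514, 766 and 752 in HET (-0.06 ± 0.14), with HET 1 the lowest of all. Rpl7l1, which acts in ribosome biogenesis, had 1279, 1172 and 1274 in WT and 1198, 1167 and 1163 in HET (-0.08 ± 0.06).

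Rps4l had 397, 328 and 374 normalized counts in WT and 414, 419 and 341 in HET (0.09 ± 0.11). Rps27l, a p53-inducible relative of Rps27, had 170, 175 and 189 in WT and 156, 167 and 187 in HET (-0.07 ± 0.12). Rpl37rt, which lies on chromosome 5 and takes 23.5% of the Rpl37 sum, had 845, 1128 and 1213 in WT and 1199, 1420 and 1295 in HET (0.31 ± 0.13). It was the only paralogue with an unadjusted p under 0.05, and WT 3 lay above HET 1. Rps27rt had 1791, 1950 and 1812 in WT and 1169, 2197 and 1925 in HET (-0.12 ± 0.19), and without HET 1 its log2 fold change was 0.15.

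The remaining paralogues were scarce. Rpl3l, the striated-muscle form of Rpl3, had 9.66 to 19.4 normalized counts, Rps3a3 6.93 to 17.9, Rps3a2 0 to 21.9 and Rps12l1 0 to 25.2, all with overlapping groups. Rpl39l, the testis-enriched form of Rpl39, had at most 4.42 and Rpl6l at most 7.33, and both fell under the minimum for a test. Rps19bp1, the binding protein, had 367, 363 and 363 in WT and 300, 391 and 362 in HET (-0.06 ± 0.11), again lowest in HET 1.

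Other genes of the same pathway were read from lists. Outside the symbol rule, Rack1 had 5499, 5571 and 5750 normalized counts in WT and 6514, 5898 and 5691 in HET (0.10 ± 0.06), and Fau had 720, 1079 and 789 in WT and 730, 774 and 972 in HET (-0.05 ± 0.15). The groups overlapped in both. Of 15 translation genes known for TOP mRNAs, 11 were above wild type, where 50.8% of all tested genes were. The HET values all lay above WT for 6 of them, beside 5.15% of all tested genes, and their median was 0.080. Eef1g, a subunit of the elongation factor that reloads eEF1A, had 6051, 6867 and 6449 in WT and 7199, 7326 and 7154 in HET (0.16 ± 0.06). Hnrnpa1, an RNA-binding protein, had 6835, 6721 and 6945 in WT and 7677, 7308 and 7248 in HET (0.12 ± 0.05). No gene of these lists passed the test.

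Genes that build ribosomes lay evenly on both sides of wild type. The median of 26 ribosome biogenesis genes was 0.0089, and 13 lay above wild type. Ubtf, the factor that opens ribosomal DNA to RNA polymerase I, had 5026, 5221 and 5463 normalized counts in WT and 4675, 4908 and 4654 in HET (-0.14 ± 0.05), and Nmd3, an export adaptor of the large subunit, had 802, 747 and 835 in WT and 965, 922 and 842 in HET (0.19 ± 0.08). The median was 0.049 over 15 genes that control ribosomal protein synthesis, of which 10 lay above wild type. Mtor had 4065, 4286 and 3659 in WT and 5477, 4735 and 4321 in HET (0.27 ± 0.09; limma, adjusted p = 0.900), and Mycn had 249, 227 and 282 in WT and 215, 226 and 214 in HET (-0.20 ± 0.11). Among the 78 genes for proteins of the mitochondrial ribosome the median was -0.016, and 33 lay above wild type (42.3%). Of the 78, 1 was without overlap upward and 3 downward, where 5.15% and 5.3% of all tested genes were. Of 748 other protein-coding genes with a transcript under 1000 bases, 378 were above wild type and the median was 0.0014.

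**Figure D5:**
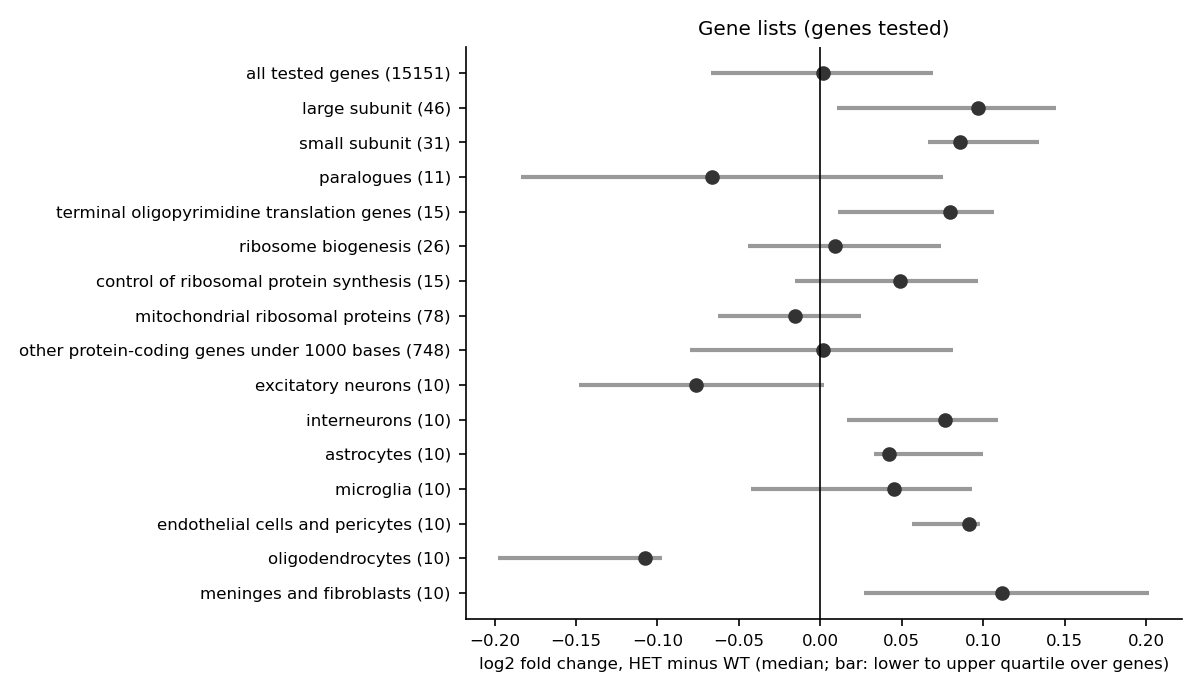
Median log2 fold change (x axis, HET minus WT; points) of each gene list, with bars from the lower to the upper quartile over its genes and the number of tested genes in brackets. Both subunits and the TOP translation genes lie right of 0, as do the interneuron, endothelial and pericyte, and meningeal and fibroblast lists. Paralogues, excitatory neurons and oligodendrocytes lie left of 0. All tested genes, ribosome biogenesis and mitochondrial ribosomal proteins lie near 0.

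Markers of cell types also differed between the libraries. In a bulk sample, fewer cells of a type and less RNA per cell cannot be told apart. Markers listed for excitatory neurons, among them the general neuronal genes Rbfox3, Snap25 and Syt1, summed to 459961 to 474086 normalized counts in WT. In HET they summed to 435627 to 443443, without overlap, and 3 of 10 were above wild type. Their mean deviations lay at -0.007 or above in WT and at -0.016 or below in HET. Their median deviations overlapped, with -0.007 in WT 2 and 0.013 in HET 3. Of the endothelial and pericyte markers 9 of 10 were above wild type, with sums of 13292 to 16970 in WT and 15292 to 17562 in HET, and their mean deviations were -0.22, 0.10 and 0.00 in WT 1 to 3 and -0.02, 0.16 and -0.02 in HET 1 to 3. WT 1 was lowest and HET 2 highest, as for the ribosomal genes. The same held for the means of astrocyte markers (-0.17 in WT 1 and 0.10 in HET 2, with 0.10 in WT 2) and choroid plexus markers (-0.93 and 0.55). The choroid plexus means rest on 3 scarce genes, among them Ttr with 8.43 normalized counts in WT 1 and 174 in HET 2. Folr1 went the other way, with 12.8 to 20.8 in WT and 7.32 to 9.66 in HET. Meningeal and fibroblast markers were above wild type in 9 of 10 (sums of 5678 to 6900 in WT and 6527 to 7433 in HET), astrocyte markers in 8 of 10 (183937 to 215947 and 195815 to 214697), microglial markers in 7 of 10 (12900 to 15995 and 14410 to 15192) and interneuron markers in 8 of 10 (42869 to 46851 and 44639 to 47120). Oligodendrocyte markers were above wild type in 0 of 10 (130256 to 181660 and 126848 to 136041), and WT 2 held the highest value of all 10. Blood markers were above in 3 of 5 (5780 to 7559 and 6295 to 6857). The sum of 5 choroid plexus markers was 67.7 to 164 in WT and 140 to 271 in HET, and it was the only marker list with a gene at 0 in any library. No marker passed the test, and the part of these cell types in the ribosomal difference was not tested.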

How the data were processed

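The authors deposited 1 table of normalized counts for 6 samples: a signal per gene, neither raw nor whole, per the file's values. The submitters' processing notes name Salmon 0.11.2, DESeq2 1.19.11, R 3.6.0 and GRCm38 but not what each did; annotation release and gene filter: not given in the sources used here. Since 80.6% to 86.4% of the lowest values but only 21.4% to 42.6% of those of 10 to 20 reads were whole within 0.1 reads, whole reads could not be recovered and no count model was used; the design had foreseen raw counts as well. Whether gene length entered the scaling is unknown. Symbols and positions came from GENCODE M21 (18122 of 18160 IDs matched).

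limma 3.58.1 was run on log2(value + 1) in R 4.3.3 (trend fit, genotype only), for 15151 genes with a mean of at least 10, adjusted by Benjamini-Hochberg over all of them, two-sided, at 0.05. A permutation test of 3 against 3 cannot go below p = 0.1 and was not used. The script was tested on simulated data. Copies were found with BLAST 2.17.0, between the transcripts of the core genes and those of all genes in the table, on the sense strand. Gene length was that of 1 chosen GENCODE transcript, so levels were not compared between genes. The members and lists were chosen with earlier results of these data known; 3 paralogues (Rpl37rt, Rpl6l, Rps12l1) were classed as such after the table was seen. Genes given in full were the 8 higher and 4 lower members of smallest p with a mean of at least 50, all paralogues, 14 members chosen by role, and 2 genes of smallest p per pathway list; those described for their copies were chosen after their values were seen. Of the genes this rule names, 2 are not reported here. The alternatives tried were rescaling, variance models, filters, pseudocounts, the sample number as a block, leaving out each library, and sums with copies.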

Additional observations from a re-analysis of the deposited data

How the results depend on the processing

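No member was called under any alternative run, and the medians of the core genes, large and small subunit stayed above 0 in all of them. Over all genes, 2 were called, and 1 was called by limma without a trend or with a mean of at least 50; leaving out 1 library gave 1 to 4. Cyfip2 lost its call without a trend (adjusted p = 0.146, limma) and kept it otherwise. The sums with copies, added after seeing the data, turned Rpl27 (0.080), Rpl10a (0.018), Rpl12 (0.038), Rpl28 (0.037) and Rpl9 (0.003) above wild type and Rps7 (-0.022) below it. Leaving out 1 library turned the sign of 7 named members, whose log2 fold changes ranged from -0.072 to 0.12 for Rpl22, -0.16 to 0.13 for Rpl22l1, -0.30 to 0.15 for Rps27rt, -0.14 to 0.045 for Rps19bp1, -1.39 to 0.22 for Rps27, -0.12 to 0.51 for Rps3a3 and -1.85 to 0.50 for Rps12l1; the cause was not tested. Rescaling by trimmed means moved the median of all genes from 0.0020 to -0.0007. The smallest adjusted p of a member ranged from 0.140 to 1.00 over the alternatives.

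With the sample number as a replicate block, 2 genes and 0 members were called, and the smallest adjusted p of a member was 0.140. Same-numbered samples correlated at 0.13, 0.12 and -0.005 in their deviations from the group means, so the numbers were not taken to pair the samples. WT 1 and WT 2 correlated best with the HET sample of their own number, and WT 3 did not.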
